A study of Triticum aestivum with 12 samples.

Results

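Small heat shock proteins were followed in developing bread wheat grain through 2 probe sets of the Affymetrix GeneChip Wheat Genome Array. They are the 2 of 61290 probe sets on the array whose identifiers are Ta.202.1.S1_at, with the putative function small heat shock protein, and Ta.24332.1.S1_at, a class I heat shock protein of 16.9 kDa. Any sister probe set sharing the first number of either identifier would also have been taken, and the array holds 0 of these. Ta.24332.1.S1_at is paired with the gene hsp16.9A in the platform annotation, whereas Ta.202.1.S1_at has no gene there and is named only by its putative function. Both identifiers end in the plain suffix _at, which the array design gives to probe sets meant for a single transcript, but bread wheat carries 3 related subgenomes and a family of near-identical class I genes, so cross-hybridisation between copies was not tested.

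Small heat shock proteins are chaperones that bind unfolding proteins without using ATP and hold them until Hsp70 and Hsp100 chaperones refold them. Class I members act in the cytosol and assemble into large oligomers. They are best known for their strong induction by heat, but many plants also make them without heat in seeds that mature and dry, alongside late embryogenesis abundant (LEA) proteins.

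The 4 groups of 3 arrays were IITR26 at 14 days after anthesis (DAA), IITR26 at 28 DAA, WL711 at 14 DAA and WL711 at 28 DAA. IITR26 is a landrace with a high grain mineral content and WL711 a cultivar with a low one, so the genotypes differ throughout their genomes and each is 1 line. All plants were grown in the field without any treatment, 3 plants per genotype had their ears marked at flowering, and each sample was total RNA of 3 whole developing grains. The labels do not say which plant a sample came from, so the p-values below measure the spread between these samples. The sources used here give no harvest dates or temperatures. Neither grain stage nor genotype can therefore be told apart from the conditions on the day of harvest.

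Each deposited value is a log2 RMA value relative to the probe set's own median over the 12 arrays, which is 0. A difference between groups can therefore be read, but the brightness of a probe set, or its distance from background, cannot. The grain is a mixture of tissues, and fewer cells of a type and less RNA per cell cannot be told apart. Over all probe sets tested, replicate arrays of IITR26 at 28 DAA had Pearson correlations of 0.831 to 0.879. Those of WL711 at 14 DAA had 0.883 to 0.903. Correlations were lower in IITR26 at 14 DAA (0.590 to 0.729) and lowest in WL711 at 28 DAA (0.286 to 0.672). The values are centred, so a correlation also falls where a group lies near the probe set medians. These correlations therefore do not rank the groups by noise. The median SD of a probe set was 0.133 and 0.177 in IITR26 at 14 and 28 DAA, and 0.127 and 0.162 in WL711. The lowest of the correlations involved WL711 28 DAA replicate 1, and the 28 DAA results are also given without it.

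Ta.202.1.S1_at was low at 14 DAA in both genotypes, higher at 28 DAA in both, and highest in IITR26 at 28 DAA. The 3 arrays of WL711 at 14 DAA read −0.89, −2.10 and −1.63 (mean −1.54 ± 0.61 SD, n = 3). Those of IITR26 at 14 DAA read −0.51, −2.16 and −1.03 (mean −1.23 ± 0.84 SD, n = 3). These groups overlapped, and both were scattered over more than a log2 unit. At 28 DAA the WL711 arrays read 0.51, 0.51 and 0.73 (mean 0.58 ± 0.13 SD, n = 3) and the IITR26 arrays 3.01, 3.22 and 3.40 (mean 3.21 ± 0.20 SD, n = 3). Neither 28 DAA group overlapped any other. The lowest WL711 array at 28 DAA stood 1.02 above the highest array at 14 DAA, and the lowest IITR26 array at 28 DAA stood 2.28 above the highest of WL711 at 28 DAA.

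Ta.24332.1.S1_at ordered the groups differently, by genotype first and by stage within the genotype. In WL711 it was low at both stages: the arrays read −2.09, −2.57 and −1.96 at 14 DAA (mean −2.21 ± 0.32 SD, n = 3) and −1.47, −1.30 and −1.43 at 28 DAA (mean −1.40 ± 0.09 SD, n = 3). In IITR26 at 14 DAA they read 4.92, 1.30 and 1.92 (mean 2.71 ± 1.93 SD, n = 3), and at 28 DAA 7.24, 6.42 and 6.97 (mean 6.87 ± 0.42 SD, n = 3). No groups overlapped. The smallest step was 0.49, between the WL711 stages. The highest WL711 array lay 2.60 below the lowest IITR26 array at 14 DAA, whose group in turn ended 1.5 below that of IITR26 at 28 DAA.

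**Figure D1:**
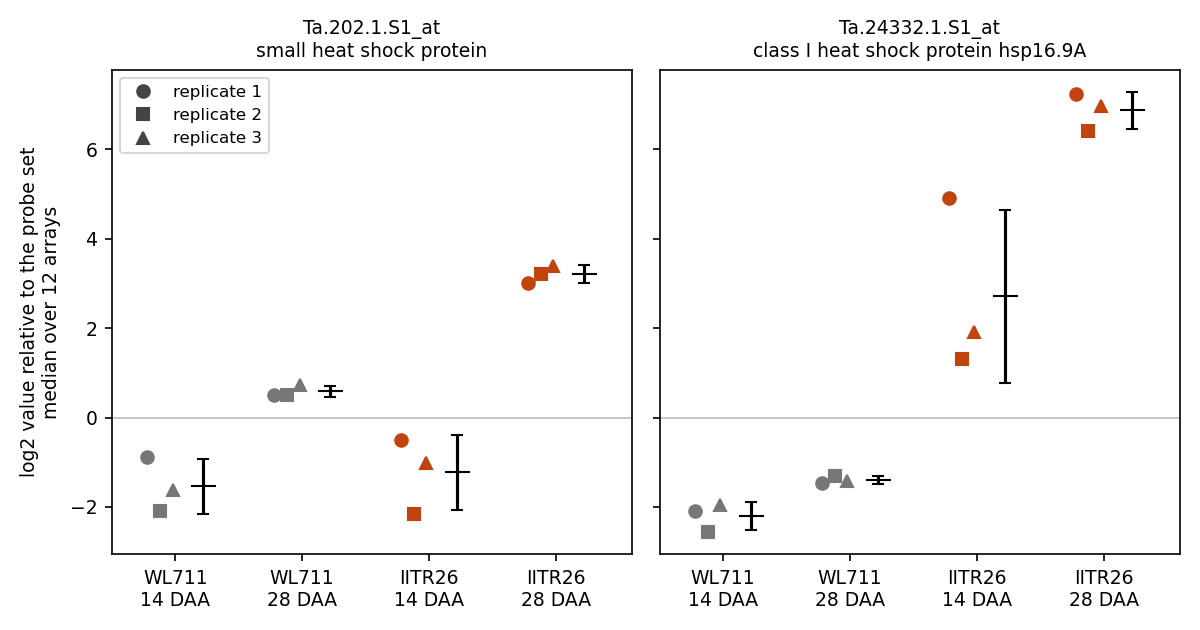
Deposited log2 value of each probe set in every array (vertical axis, relative to the probe set's median over 12 arrays) for the 4 groups of genotype and DAA, with symbols for the replicate number and bars for the mean ± SD of 3 arrays. Ta.202.1.S1_at reached 3.01 to 3.40 in IITR26 at 28 DAA, whereas Ta.24332.1.S1_at separated the genotypes at both stages and spread from 1.30 to 4.92 in IITR26 at 14 DAA.

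The spread was uneven between the stages. For Ta.24332.1.S1_at in IITR26 at 14 DAA, replicate 1 stood 2.99 above the next array, a 12.3-fold range between the highest and the lowest of the 3. Among all 61179 probe sets tested, 8 had a larger SD in that group. Counting Ta.24332.1.S1_at itself, 6 had a gap between the highest array and the next at least as large, and 3 of these were highest in replicate 1. Ta.202.1.S1_at had a larger SD than 99.7% of probe sets in the same group and than 98.8% in WL711 at 14 DAA, where the median SD of all probe sets was 0.133 and 0.127. At 28 DAA its scatter was ordinary, with 56.0% of probe sets having a smaller SD in IITR26 and 36.2% in WL711. Ta.24332.1.S1_at had a larger SD than 92.4% of probe sets in IITR26 at 28 DAA and than 21.2% in WL711.

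At 14 DAA some arrays stood high or low for both probe sets. In IITR26 at 14 DAA, replicate 1 was the highest and replicate 2 the lowest array for both, and in WL711 at 14 DAA replicate 2 was the lowest for both. Over the 12 arrays the Pearson correlation between the probe sets was 0.721, and that of their deviations from the group means was 0.683. The latter rested on IITR26 at 14 DAA and was 0.264 over the 9 other arrays, and the deviations of the 28 DAA arrays did not run the same way. The points are whole arrays that share hybridisation and RNA quality, so these values describe the arrays and carry no test.

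The genotypes were compared at each stage, as the study did, with limma fitted on all 61179 probe sets. A probe set was called when its Benjamini-Hochberg adjusted p was at most 0.01 and its log2 difference at least 2, the thresholds of the study's methods. The study named both small heat shock proteins from this contrast on these same arrays, so the genotype differences below describe what was chosen and are not independent evidence. With 3 arrays against 3, an exact two-sided permutation test of 1 probe set cannot go below p = 0.1, which it gave wherever the groups did not overlap. The comparisons share arrays where they share a group.

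At 14 DAA, 1 of the 2 probe sets was called higher in IITR26, against 0.595% of all probe sets (364 of 61179). This was Ta.24332.1.S1_at, which was 4.92 higher on the log2 scale (SE 0.69, 95% confidence interval 3.41 to 6.43, adjusted p = 0.00066), a 30.3-fold difference with an interval of 10.6 to 86.1. Its size rested in part on the scattered IITR26 arrays: the difference was 3.82 without IITR26 14 DAA replicate 1 and 5.63 without replicate 2, and was called in both fits. The call was lost, with the difference still at 4.92, when limma was fitted on only the 6 arrays compared (adjusted p = 0.019). Ta.202.1.S1_at differed by 0.31 (SE 0.37, 95% confidence interval −0.50 to 1.12, adjusted p = 0.73), and its sign turned to −0.052 without IITR26 14 DAA replicate 1 and to −0.60 when quantile normalisation was repeated. The interval left room for up to 2.17-fold higher, or for 0.705 times the WL711 level. Here and below, quantile normalisation was repeated on the deposited values, which were already centred on each probe set's median. It therefore did not repeat the RMA step on intensities. It gives the centred values of all arrays the same distribution, so the step itself can alter differences between groups.

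At 28 DAA both probe sets were called higher in IITR26, against 0.566% of all probe sets (346 of 61179). Ta.24332.1.S1_at was 8.27 higher on the log2 scale (SE 0.69, 95% confidence interval 6.76 to 9.78, adjusted p = 1.1e-05), which is 309-fold with an interval of 109 to 878. Only 2 of the probe sets tested had a larger positive difference at this stage. Ta.202.1.S1_at was 2.63 higher (SE 0.37, 95% confidence interval 1.81 to 3.44, adjusted p = 0.0005), or 6.18-fold with an interval of 3.52 to 10.8, and stood 190th among the 346 called higher. Leaving out WL711 28 DAA replicate 1, the array with the lowest correlations in its group, gave 8.24 (adjusted p = 4.3e-05) and 2.59 (adjusted p = 0.0016). Repeated quantile normalisation lowered the difference of Ta.202.1.S1_at to 1.80 (adjusted p = 0.019), which ended its call.

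For both probe sets the genotype difference was larger at 28 than at 14 DAA, but neither increase passed the threshold of 0.01. The difference between the genotype differences was 2.32 for Ta.202.1.S1_at (SE 0.52, 95% confidence interval 1.17 to 3.47, adjusted p = 0.015). It was 3.35 for Ta.24332.1.S1_at (SE 0.97, 95% confidence interval 1.22 to 5.48, adjusted p = 0.048). Thus 0 of the 2 were called, against 0.729% of all probe sets called in this direction. Without IITR26 14 DAA replicate 1, the highest array of its group for both, the values were 2.68 (adjusted p = 0.0074) and 4.45 (adjusted p = 8.5e-05), and both were called. After repeated quantile normalisation the value for Ta.24332.1.S1_at was 2.04 (adjusted p = 0.41).

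**Figure D2:**
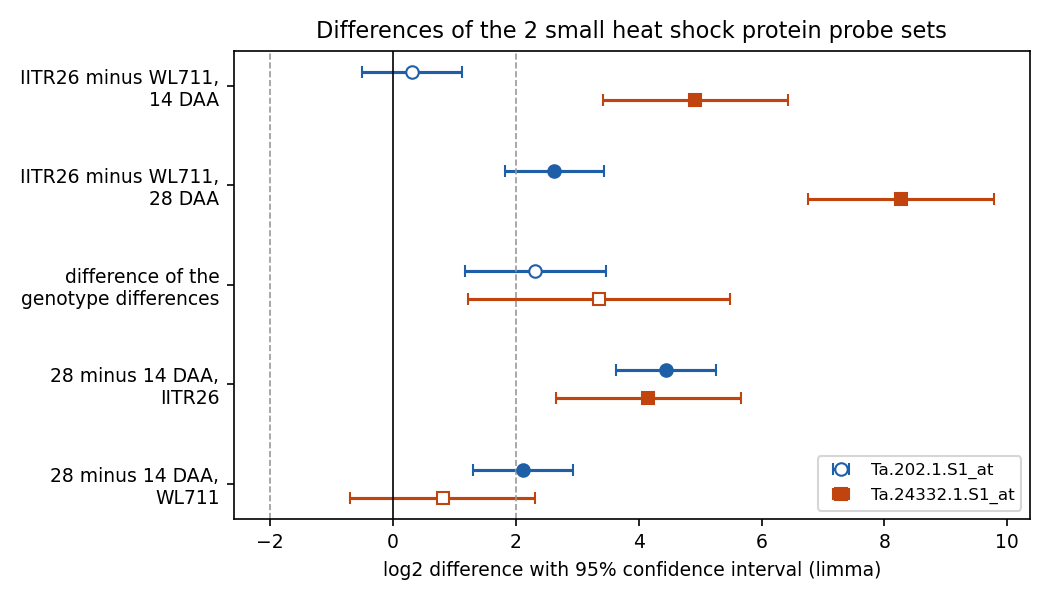
Log2 differences of the 2 probe sets (horizontal axis) in the 5 comparisons, with 95% confidence intervals from limma; filled symbols passed an adjusted p of 0.01 and the log2 difference of 2 drawn as dashed lines. The intervals of Ta.202.1.S1_at between genotypes at 14 DAA and of Ta.24332.1.S1_at between stages in WL711 include 0, and the sign of both differences turned when quantile normalisation was repeated.

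Grain was also compared between the stages within each genotype, a contrast the choice of the probe sets did not use directly, although it draws on the same arrays. In IITR26 both were called higher at 28 than at 14 DAA, against 1.33% of all probe sets (812 of 61179). Ta.202.1.S1_at rose by 4.44 on the log2 scale (SE 0.37, 95% confidence interval 3.63 to 5.25, adjusted p = 4.6e-06), or 21.7-fold with an interval of 12.4 to 38.1. Ta.24332.1.S1_at rose by 4.16 (SE 0.69, 95% confidence interval 2.65 to 5.67, adjusted p = 0.00073), or 17.9-fold with an interval of 6.28 to 50.8. The rises were alike in size, but that of Ta.24332.1.S1_at was less firm. It was 5.26 without IITR26 14 DAA replicate 1 and 3.45 without replicate 2, it was not called when fitted on the 6 IITR26 arrays alone (adjusted p = 0.013), and it was 1.72 after repeated quantile normalisation (adjusted p = 0.22).

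In WL711, 1 of the 2 probe sets was called higher at 28 DAA, against 0.958% of all probe sets (586 of 61179). Ta.202.1.S1_at rose by 2.12 (SE 0.37, 95% confidence interval 1.31 to 2.93, adjusted p = 0.0015), or 4.35-fold with an interval of 2.48 to 7.64, and stood 539th among the 586. It was close to the threshold: without WL711 14 DAA replicate 2 the rise was 1.84 (adjusted p = 0.0075), short of the difference required. Ta.24332.1.S1_at differed by 0.81 (SE 0.69, 95% confidence interval −0.70 to 2.32, adjusted p = 0.48) and turned to −0.32 after repeated quantile normalisation, although its WL711 arrays did not overlap between the stages in the values as deposited. Its SE comes from a spread shared over the 4 groups, and so includes the wide scatter of IITR26 at 14 DAA. Of all probe sets, 341 (0.557%) were called higher at 28 DAA in both genotypes, and Ta.202.1.S1_at was among them.

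None of the other probe sets whose name matched a heat shock, chaperone or ubiquitin term was called higher at 28 than at 14 DAA. There were 8, of which 7 come from the study's table of probe sets selected on these arrays, so their genotype differences are not independent evidence, and 1 was named by the platform annotation alone. None of the 8 is named as a heat shock protein. The study's table names 580 probe sets and the platform annotation 1273, so heat shock genes without a name were not examined. Of all probe sets 1.33% were called higher in IITR26 and 0.958% in WL711, so 0 of 8 is a count near that background and does not set the list apart. In IITR26, 2 were lower and 6 neither, with a median log2 difference of −0.21, and in WL711 1 was lower and 7 neither, with a median of 0.30; the median over all probe sets was 0.014 and 0.028. Repeated quantile normalisation turned the WL711 median to −0.18. A ubiquitin carrier protein (E2; Ta.21055.1.S1_at), which passes activated ubiquitin on, was 1.27 higher at 28 DAA in IITR26 (adjusted p = 0.0017), short of the size required for a call. Calreticulin 1 (Ta.368.1.S1_x_at), a calcium-binding chaperone of the endoplasmic reticulum, fell by 2.35 in IITR26 (adjusted p = 2.6e-05) and fell by 3.43 in WL711 (adjusted p = 2e-06). A proteasome assembly chaperone 2-like probe set (Ta.12714.2.S1_a_at) fell by 2.59 in IITR26 (adjusted p = 0.00045).

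Between genotypes, 0.595% of all probe sets were called higher in IITR26 and 0.772% lower at 14 DAA, and 0.566% and 0.804% at 28 DAA. The 8 listed probe sets were divided. At 14 DAA, 4 were higher in IITR26, 1 lower and 3 neither (median 1.15, against 0.0098 over all probe sets), and at 28 DAA 2 were higher, 2 lower and 4 neither (median 0.88, against −0.0001). A ubiquitin fusion protein (Ta.14475.1.S1_at), a precursor of the ubiquitin that tags proteins for breakdown, was 3.74 higher at 14 DAA (adjusted p = 5.5e-07) and 2.81 higher at 28 DAA (adjusted p = 4.6e-06). The ubiquitin carrier protein was 2.67 higher at 14 DAA (adjusted p = 2.4e-05) and 3.27 higher at 28 DAA (adjusted p = 4.2e-06). These were higher in IITR26 at both stages, as Ta.24332.1.S1_at was.

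A pair of further probe sets were called higher at 14 DAA only. Protease do-like 14 (Ta.6399.1.A1_at), of a family of serine proteases that clear damaged proteins, differed by 2.30 at 14 DAA (adjusted p = 2.6e-05) and by 1.66 at 28 DAA (adjusted p = 0.00021). A DnaJ 6-like chaperone (TaAffx.128.1.S1_at), of the family that delivers clients to Hsp70, differed by 2.37 (adjusted p = 0.0056) and 1.58 (adjusted p = 0.036). Neither had a called difference between the stages, and 0 of the 8 had a called difference between the genotype differences.

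The remaining called probe sets were lower in IITR26. Calreticulin 1 was 2.08 lower at 14 DAA, a log2 difference of −2.08 (adjusted p = 0.00023), and read −0.99 at 28 DAA (adjusted p = 0.016). The proteasome assembly chaperone 2-like probe set read −0.30 at 14 DAA (adjusted p = 0.77) and −2.64 at 28 DAA (adjusted p = 0.00082). A ubiquitin-fold modifier (Ta.30733.1.S1_x_at), a small protein joined to others much as ubiquitin is, read −1.67 at 14 DAA, under the required size, and −2.06 at 28 DAA (adjusted p = 2.6e-06). FKBP70, a peptidyl-prolyl isomerase, was called in 0 of the 5 comparisons.

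**Figure D3:**
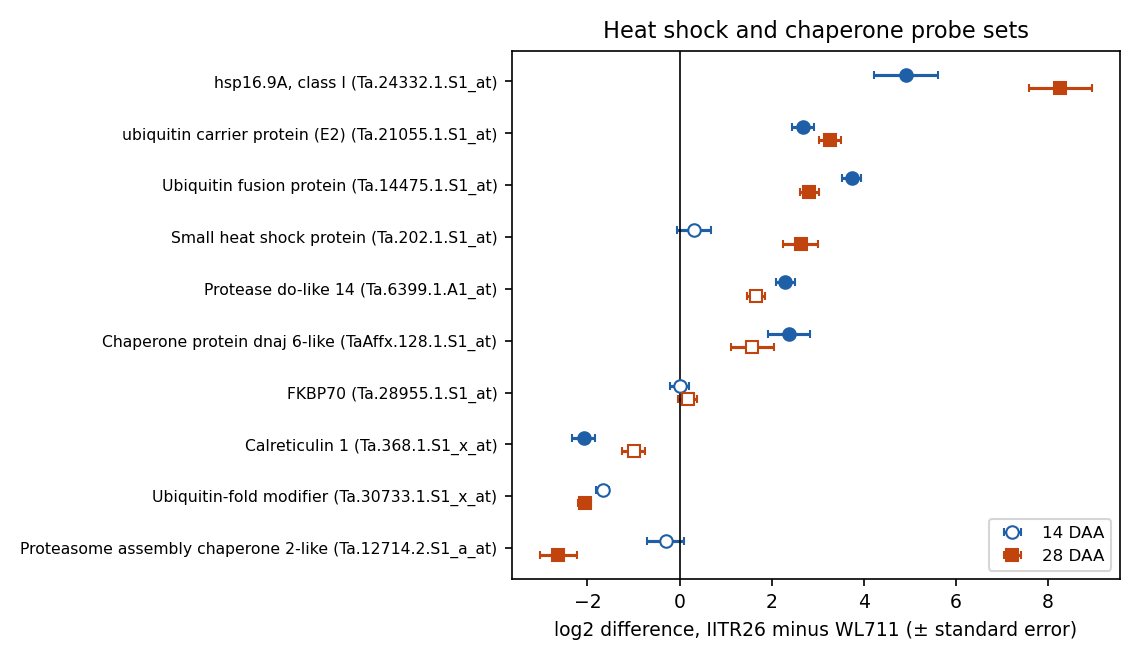
Log2 difference of IITR26 minus WL711 (horizontal axis, ± SE from limma) at 14 DAA (circles) and 28 DAA (squares) for the 2 small heat shock proteins and the 8 other chaperone and ubiquitin list members, filled where called. Ta.24332.1.S1_at had the largest difference of the 10 at both stages. Ta.202.1.S1_at moved from 0.31, whose sign turned when quantile normalisation was repeated on the centred values, to 2.63.

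Genes of the drying seed were set beside the small heat shock proteins, since many plants make both in seeds that mature and dry. Of all probe sets, 1.33% were called higher at 28 DAA in IITR26, 0.958% in WL711 and 0.557% in both. The list held 10 probe sets for LEA proteins, dehydrins, oleosin and relatives. Of these, 7 were called higher at 28 DAA in IITR26 (median log2 difference 3.53) and 7 in WL711 (median 3.29). None was lower in either, and 6 rose in both genotypes. Ta.202.1.S1_at, with 4.44 and 2.12, rose in both as these 6 did. Between genotypes, 6 were higher in IITR26 at 14 DAA and 1 lower (median 2.36), and 5 were higher and 1 lower at 28 DAA (median 1.90), against 0.595% and 0.566% of all probe sets called higher. The study had selected 9 of the 10 for a genotype difference on these arrays, so these genotype counts follow from that choice and nothing is read from them. The stage counts use the same arrays and are not free of the choice either. Repeated quantile normalisation left 2 called higher at 14 DAA (median 1.39) and 3 at 28 DAA (median 1.02).

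The 4 of these with the largest genotype difference at 28 DAA did not follow a single course. An LEA group 1 probe set (Ta.13396.1.S1_at) was 7.05 higher in IITR26 at 28 DAA (adjusted p = 1.6e-07) and differed by −0.022 at 14 DAA (adjusted p = 0.99), and its genotype difference grew by 7.07 (adjusted p = 9e-06). Another LEA group 1 probe set (Ta.13165.2.S1_at) was lower in IITR26 at both stages, by −3.74 and −4.07. A senescence/dehydration associated protein (Ta.21557.1.A1_at) was higher in IITR26 by 2.26 and 3.30, and embryonic protein DC-8 (Ta.6146.1.S1_at), an LEA-type protein of embryos, by 3.21 and 3.10. LEA proteins are hydrophilic and protect membranes and proteins as cells lose water.

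Most markers of the embryo and aleurone were higher at 28 DAA in both genotypes. There were 9 such probe sets, 5 of only the Em genes EMH2 and EM and 4 that the drying list also holds. Probe sets of the same gene are repeated readings and not separate markers. At 28 DAA, 8 of the 9 were called higher in IITR26 (median 9.06) and 7 in WL711 (median 8.67), against 1.33% and 0.958% of all probe sets. The 5 Em probe sets differed by 9.04 to 10.7 in IITR26 and by 8.67 to 10.6 in WL711. The WL711 median is that of an Em probe set. The IITR26 median is that of LEA group 1 (Ta.13396.1.S1_at), which differed by 9.06 in IITR26 and 1.98 in WL711. Dehydrin xero 1 (Ta.14247.2.S1_x_at) differed by 5.02 in IITR26 and 2.01 in WL711, and oleosin (Ta.14236.1.S1_at) by 5.14 and 5.94. LEA group 1 (Ta.13165.2.S1_at) differed by 0.15 in IITR26 and 0.47 in WL711. The list's median value per array ran from −4.71 to −2.71 in IITR26 and from −5.34 to −4.61 in WL711 at 14 DAA, and from 4.99 to 5.25 in IITR26 and from 2.71 to 3.99 in WL711 at 28 DAA. Between genotypes, 1 was higher and 1 lower at 14 DAA (median 1.14), and 3 were higher and 1 lower at 28 DAA (median 1.51). Of all probe sets, 0.595% were called higher and 0.772% lower at 14 DAA, and 0.566% and 0.804% at 28 DAA. Every listed probe set called was among the 4 that the study had selected for a genotype difference, so these counts follow from that choice. The stage differences of these 4 use the same arrays and are not free of it either. No Em probe set was called between genotypes. Repeated quantile normalisation turned these genotype medians to −1.61 and −0.15, with 0 and 1 probe sets called higher.

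Other tissue markers also moved with the groups, but every one of them came from the study's table of probe sets selected for a genotype difference on these arrays, so their genotype counts follow from that choice. At 14 DAA, 3 of 4 probe sets of the starchy endosperm were higher in IITR26 (median 4.07), against 0.595% of all probe sets. Of green tissue, 5 of 7 were lower (median −2.24), against 0.772%. At 28 DAA, 12 of 12 of dividing cells were lower in IITR26 (median −3.62), as were 2 of 2 of endosperm transfer cells, against 0.804% of all probe sets (492 of 61179). Between the stages, 9 of the 12 of dividing cells were lower at 28 DAA in IITR26 and 0 in WL711, against 1.59% and 1.34% of all probe sets. The stage counts use arrays that the study's choice also used, those of IITR26 at 28 DAA among them, and are not free of it. The median of the dividing cell list per array ran from −3.75 to −2.98 in IITR26 at 28 DAA and from −0.074 to 0.74 in the WL711 arrays. The part of these markers, and of those of the embryo and aleurone, in the results for the small heat shock proteins was not tested.

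The probe sets whose values followed each small heat shock protein most closely were found by Pearson correlation over the 12 arrays, which holds the difference between the 4 groups and the arrays' shared quality, and are given as a description. For Ta.202.1.S1_at, 1383 probe sets had a correlation above 0.9 and 284 above 0.95. The closest was a hypothetical protein (Ta.8713.1.A1_at, 0.982), and the next 4 had no name (0.981 to 0.982). Its nearest neighbours with a known function were an aldose 1-epimerase (Ta.712.1.S1_s_at, 0.977), which interconverts sugar anomers, a glyoxalase family protein (Ta.8571.1.S1_a_at, 0.971), an enzyme family that clears methylglyoxal, and dehydrin xero 1 (Ta.14247.2.S1_x_at, 0.971). The dehydrin differed between genotypes by 0.075 at 14 DAA and by 3.09 at 28 DAA, and rose with stage by 5.02 in IITR26 and by 2.01 in WL711, each beside 0.31, 2.63, 4.44 and 2.12 for Ta.202.1.S1_at.

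Ta.24332.1.S1_at had fewer probe sets with a like pattern, 139 above a correlation of 0.9 and 17 above 0.95. The closest was again a hypothetical protein (Ta.7789.1.S1_at, 0.974), followed by Ta.11759.1.A1_at (0.973), TaAffx.56730.1.S1_at (0.969) and TaAffx.61076.1.S1_at (0.969), all without a name. These tracked its pattern over a much narrower range, with genotype differences at 28 DAA of 2.01, 1.23, 1.40 and 0.59 beside 8.27. A GATA zinc finger domain protein (Ta.7430.1.S1_at, 0.965), of a family of transcription factors, differed between genotypes by 3.61 at 14 DAA and 5.45 at 28 DAA. A peroxidase precursor (Ta.23366.2.S1_at, 0.964) differed by 2.98 and 7.14 and rose with stage by 3.55 in IITR26, with −0.62 in WL711 (adjusted p = 0.085).

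**Figure D4:**
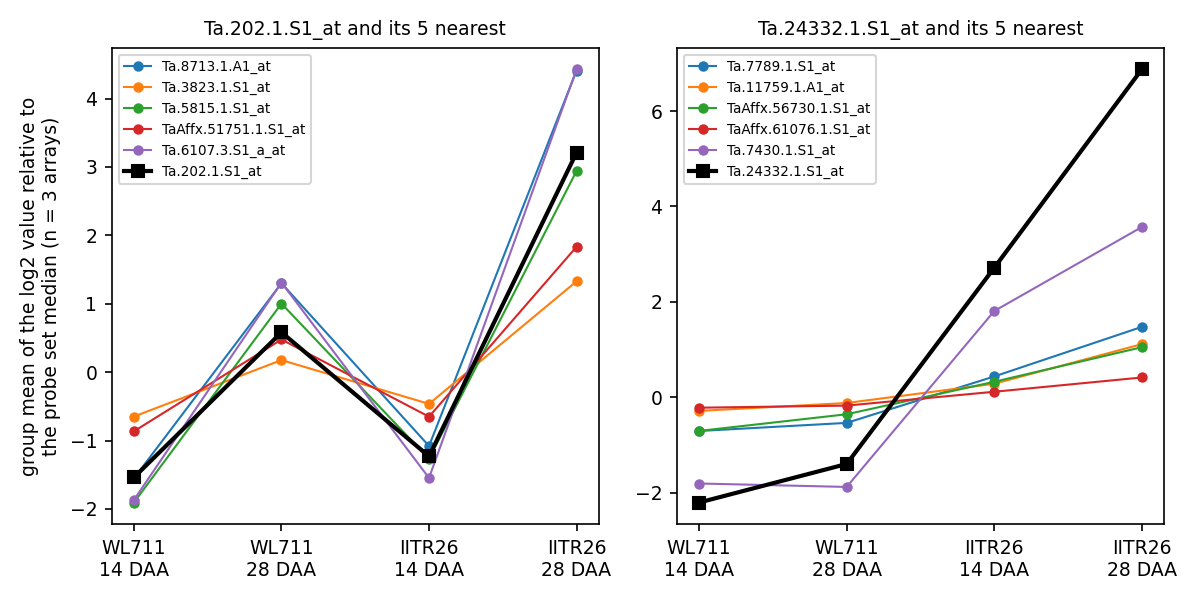
Group means (vertical axis, log2 value relative to the probe set's median, n = 3 arrays) of Ta.202.1.S1_at (left, black) and Ta.24332.1.S1_at (right, black) with their 5 closest probe sets in colour; the lines only join the groups of a probe set. The neighbours of Ta.202.1.S1_at peaked at 28 DAA in both genotypes, whereas Ta.24332.1.S1_at and its neighbours were higher in IITR26 at both stages.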

How the data were processed

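Total RNA of 12 grain samples was hybridised to 1-colour arrays. Per the labels and the study's methods, the authors imported the scans into GeneSpring GX v12 and normalised them with RMA, and deposited log2 values; every probe set has a median of 0 over the 12 arrays, a centring step that the sources used here do not describe. The submitters' processing notes name RMA without a version. Groups came from the sample labels, and 0 per-sample columns were left unused. Affymetrix's 111 control probe sets (AFFX) were removed.

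The remaining 61179 probe sets were fitted with limma 3.58.1 in R 4.3.3, with 1 mean per group, all 12 arrays (8 residual degrees of freedom) and Benjamini-Hochberg adjustment over all of them. Exact permutation tests used scipy 1.17.1. The limma step was tested on simulated data. The number of arrays limits the precision. The labels give no pairing by replicate number. Deviations from the group means were correlated above 0.1 in 2 of 18 same-numbered pairs of arrays and in 0 of 36 other pairs. These 2 joined IITR26 and WL711 at 14 DAA (0.1555 for replicate 2 and 0.1877 for replicate 3). What same-numbered arrays share was not tested.

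Functions came from the study's supplementary annotation (580 probe sets) and from the platform annotation (1273 probe sets with 1 gene, 1272 matched to the gene table). The members and lists were chosen with earlier results of these data known. Probe sets were named by rule: both members, the chaperone list members called in a comparison (FKBP70 was named beside them), the 4 drying-list members with the largest genotype difference at 28 DAA, and for each member the 5 most correlated probe sets and the most correlated with a name. Alternatives were fewer arrays, the replicate number as a block, other scalings of the centred values, array weights, filters, the methods' t-test, a lower threshold and leaving out each array.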

Additional observations from a re-analysis of the deposited data

Results flagged for a closer look

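For both probe sets the change of the genotype difference between the stages was tested directly, and stood out at a looser level than the one used for calls. The difference was 2.32 larger at 28 than at 14 DAA for Ta.202.1.S1_at on the log2 scale (limma adjusted p = 0.015), and the IITR26 array stood above every WL711 array in 3 of 3 samples at 28 DAA, while the groups overlapped at 14 DAA. It was 3.35 larger for Ta.24332.1.S1_at (limma adjusted p = 0.048), with all 3 IITR26 arrays above all WL711 arrays at both stages. Neither passed the adjusted p of 0.01 used for calls, and after repeated quantile normalisation the values were 2.41 (adjusted p = 0.027) and 2.04 (adjusted p = 0.41). The study named both probe sets from genotype differences on these same arrays. The separation of the arrays, and the change with stage drawn from it, are therefore not independent evidence.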

How the results depend on the processing

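Leaving out each of the 12 arrays in turn kept the direction and the call in 57 of 60 values for Ta.202.1.S1_at and 59 of 60 for Ta.24332.1.S1_at. Where the array left out belonged to neither group compared, the difference could not move, only its SE and adjusted p. Part of these values therefore kept their direction by construction. Between genotypes at 14 DAA Ta.202.1.S1_at ranged from −0.052, without IITR26 14 DAA replicate 1, to 0.77. The change of the genotype difference with stage ranged from 1.86 to 2.68 and from 2.64 to 4.45, with 0 to 2 probe sets called; both calls appeared without IITR26 14 DAA replicate 1. The rise of Ta.202.1.S1_at in WL711 ranged from 1.84 to 2.45, with 0 to 1 probe sets called; the call was lost without WL711 14 DAA replicate 2.

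Fitting only the 6 arrays compared left Ta.24332.1.S1_at uncalled between genotypes at 14 DAA (4.92, adjusted p = 0.019; 0 probe sets called) and between stages in IITR26 (4.16, adjusted p = 0.013; 1 called). Repeated quantile normalisation gave Ta.202.1.S1_at −0.60 at 14 DAA and 1.80 at 28 DAA (1 called), and Ta.24332.1.S1_at 1.72 between stages in IITR26 (1 called) and −0.32 in WL711; the cause was not tested. The methods' t-test, unadjusted, did not call Ta.24332.1.S1_at at 14 DAA (4.92; 0 called) or between stages in IITR26 (4.16; 1 called). After Benjamini-Hochberg adjustment it called 0 of the 2 in each of the 4 comparisons it was run on (not the change with stage), with Ta.202.1.S1_at at 2.63, 4.44 and 2.12 and Ta.24332.1.S1_at at 4.92, 8.27 and 4.16, the values themselves being unaltered.

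Aligning the array medians, array weights, leaving out the 12726 probe sets open to cross-hybridisation and a log2 threshold of 1 altered no call of either probe set. With the replicate block, a pairing that the labels do not give, Ta.202.1.S1_at was 2.63 higher in IITR26 at 28 DAA (adjusted p = 0.0005), and no call changed. A filter on a coefficient of variation under 50% in every group, on the linear scale, gave no value, since it was 50.7% and 129% in IITR26 at 14 DAA; the methods name this limit but not its scale or arrays, so the filter may differ from theirs. It left 59249 probe sets and took those called between genotypes at 14 DAA from 836 to 504. The adjusted t-test called 219 at 14 DAA and 1 at 28 DAA, where the main fit called 836 and 838. Between stages it called 731 in IITR26 and 446 in WL711, where the main fit called 1785 and 1405. Repeated quantile normalisation called 482 at 28 DAA. Leaving out probe sets open to cross-hybridisation called 553 at 28 DAA, 581 for the change with stage (933 in the main fit), and 1130 and 890 between stages. A threshold of 1 called 2420, 3201, 2510, 5852 and 4184 in the 5 comparisons.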
